A study of Arabidopsis thaliana with 36 samples.

Results

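IRON MAN 1 (AT1G47400), BHLH101 and PYE are regulators of the iron-deficiency response of Arabidopsis thaliana. Each is represented by the 1 probe set that names it alone in the platform annotation, which makes 3 of 22746 probe sets that are not array controls. They were chosen by their log2 level in light against dark, with earlier results of the same data known. Their levels over the day are therefore described without a test, and tests are given for the sucrose-gradient fractions and for the ratio between fractions, which were not the basis of the choice.

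In plants, low iron is read by a cascade of basic helix-loop-helix (bHLH) transcription factors. ILR3 and its relatives bHLH34, bHLH104 and bHLH115, together with bHLH121, activate genes for a further set of bHLH factors, among them BHLH101, and the gene PYE (POPEYE). BHLH101 acts with relatives and with the root factor FIT on genes of iron uptake, PYE represses genes of iron transport and storage, and IRON MAN peptides are short signals of iron demand that protect the upstream factors from degradation by E3 ubiquitin ligases. In leaves, iron is needed above all by the chloroplast.

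The material was the aerial part of 10-day-old Columbia plants overexpressing CCA1 (CCA1-ox), which encodes a MYB transcription factor of the circadian clock, and all groups carry this transgene. Its promoter is not given in the sources used here. They were raised on agar plates containing 1% sucrose, with a daily 16 h light and 8 h dark period, and collected at 6am (zeitgeber time 0 h, lights on), 12pm (6 h), 6pm (12 h) and 12am (18 h). RNA of 3 replicates per time was split into non-polysomal RNA, small polysomal RNA and large polysomal RNA, which gave 36 arrays in 12 groups of 3. Wild type is not analysed here, and the part of the transgene in the daily course cannot be told apart from that of the light cycle.

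Each probe set has a log2 expression value on each array, with a lower end near 2 that all arrays share, so that differences between low values are compressed. Pairs of arrays of a group had r of 0.961 to 0.996 across the 12635 probe sets that passed a filter (log2 value of at least 5 on at least 3 arrays), and the 3 non-polysomal arrays of 6am had the lowest mean r with their group (0.963 to 0.965). The labels do not say whether replicates were grown separately, so p-values reflect only how these samples vary, which may be technical, and the number of arrays limits their precision. Of the listed markers, 2 of 7 for green tissue and 2 of 8 for roots have a probe set that names them alone. RCA, which activates Rubisco, read 11.97 to 14.16 and the antenna gene LHCB4.2 12.64 to 14.58, while of the root markers PYK10, a beta-glucosidase gene, read 10.41 to 12.48 and AT4G11290 2.16 to 3.07. PYK10 was 0.43 higher in the light than in the dark, RCA 0.36 and LHCB4.2 0.50, while the difference of AT4G11290 was -0.10. Whether RNA from roots took part in the values of the iron genes was not tested.

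IRON MAN 1 was high in the light and low at midnight in all 3 fractions. Its level, the mean of the 3 fractions of an extract, was 7.09 ± 0.50 at 6am, 9.67 ± 0.47 at 12pm, 10.71 ± 0.34 at 6pm and 4.40 ± 0.72 at 12am (SD, n = 3). At 6am its non-polysomal arrays read 7.24, 6.91 and 4.79 for replicates 1 to 3, its small polysomal arrays 7.39, 7.45 and 7.75, and its large polysomal arrays 7.98, 7.16 and 7.09. Of these 9 arrays, 8 lay between 6.91 and 7.98, and the non-polysomal array of replicate 3 stood alone below 5. At 12pm the non-polysomal arrays read 9.02, 10.17 and 9.91, the small polysomal 9.22, 10.06 and 10.49, and the large polysomal 9.16, 9.79 and 9.24. At 6pm the non-polysomal arrays read 11.08, 10.57 and 10.68, the small polysomal 10.86, 10.73 and 10.85, and the large polysomal 11.34, 10.07 and 10.21. In each fraction every 6pm array lay above every 12pm array, and every 12pm array above every 6am array. How many of all probe sets have times apart in this way was not counted. At 12am the non-polysomal arrays read 3.77, 5.04 and 3.09, the small polysomal 5.13, 5.62 and 4.15, and the large polysomal 4.55, 4.54 and 3.68. The 12am arrays lay below all 6am arrays in the small and the large polysomal fraction, while in the non-polysomal fraction the ranges of 12am and 6am overlapped. From 6pm to 12am the level fell by 6.31 on the log2 scale, and at 6am, when lights came on, it was 2.69 above that of 12am.

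BHLH101 followed the same order of times. Its level was 4.52 ± 0.61 at 6am, 7.26 ± 0.24 at 12pm, 8.82 ± 0.25 at 6pm and 3.68 ± 0.35 at 12am (SD, n = 3). At 6am the non-polysomal arrays read 4.91, 4.03 and 4.03, the small polysomal 5.46, 4.75 and 4.03, and the large polysomal 5.31, 3.95 and 4.21. The value 4.03 stood on 5 arrays to all digits deposited, and these arrays cannot be ordered. At 12pm the non-polysomal arrays read 7.54, 7.58 and 7.12, the small polysomal 7.11, 7.89 and 7.49, and the large polysomal 6.61, 7.14 and 6.90. At 6pm the non-polysomal arrays read 8.58, 9.03 and 8.87, the small polysomal 8.46, 9.08 and 9.21, and the large polysomal 8.55, 8.91 and 8.66. The ranges of 6pm and 12pm, and those of 12pm and 6am, were apart in every fraction, a separation not counted over all probe sets. At 12am the non-polysomal arrays read 3.89, 4.03 and 3.32, the small polysomal 4.21, 3.47 and 4.02, and the large polysomal 4.03, 3.48 and 2.71. All 9 arrays of 12am and 7 of 9 of 6am lay under 5, and the ranges of 12am and 6am overlapped or touched in every fraction. The values of 12am and 6am were thus low, which limits how exactly the size of the difference from 12pm and 6pm can be read.

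PYE followed the same order of times, and on average its non-polysomal values were above its polysomal ones, an order that spike-in scaling turns. Its level was 6.19 ± 0.15 at 6am, 7.26 ± 0.16 at 12pm, 7.73 ± 0.14 at 6pm and 5.16 ± 0.13 at 12am (SD, n = 3), and in each fraction the ranges of neighbouring times in this order were apart. The share of all probe sets with times apart in this way was not counted. At 6am the non-polysomal arrays read 7.04, 6.82 and 6.66, the small polysomal 6.33, 6.12 and 6.14, and the large polysomal 5.71, 5.37 and 5.53. At 12pm the non-polysomal arrays read 7.98, 8.05 and 8.07, the small polysomal 6.78, 7.15 and 7.45, and the large polysomal 6.48, 6.74 and 6.66. At both times every large polysomal array lay below every small polysomal array, and each of these below every non-polysomal array. At 6pm the non-polysomal arrays read 8.64, 8.26 and 8.21, the small polysomal 7.93, 7.63 and 7.62, and the large polysomal 7.10, 7.17 and 7.05, again without overlap. At 12am the non-polysomal arrays read 5.36, 5.33 and 5.95, the small polysomal 5.29, 5.11 and 5.73, and the large polysomal 5.12, 4.60 and 3.98. Here the small polysomal range overlapped both others, and only the large polysomal and non-polysomal ranges were apart.

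**Figure D1:**
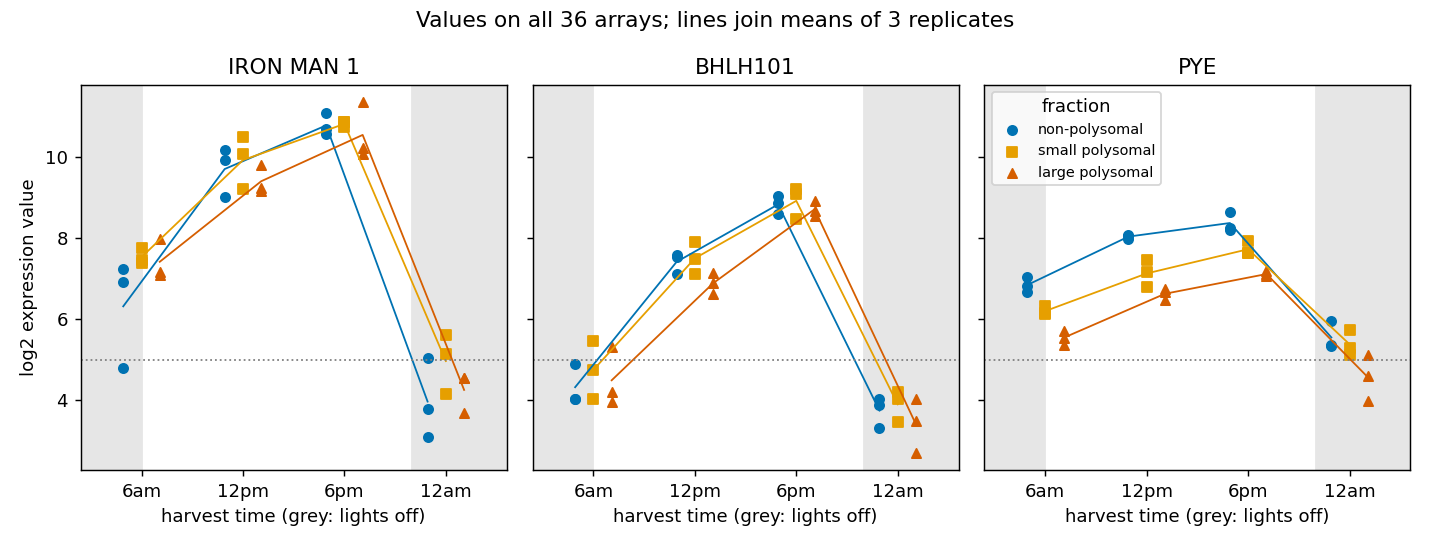
Log2 expression values of the 3 genes (vertical axis) against harvest time, with 1 point per array, coloured by fraction, lines through the means of 3 replicates, grey for lights off and a dotted line at the filter value of 5. All 3 genes are highest at 6pm and lowest at 12am, and the fractions of PYE lie apart from 6am to 6pm, in an order that spike-in scaling turns.

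As light minus dark (mean of 12pm and 6pm minus mean of 12am and 6am), the difference in level was 4.45 for IRON MAN 1, 3.94 for BHLH101 and 1.82 for PYE on the log2 scale. Here and below 6am, the time of lights on, is counted as dark. In bulk tissue fewer cells with a transcript and less transcript per cell cannot be told apart. The 3 differences are values of the contrast on which the genes were chosen, and they carry no test. With 12am alone as the dark time the differences were 5.80, 4.36 and 2.33, and with 6am alone 3.11, 3.52 and 1.31. The lowest extract in the light and the highest in the dark were 9.13 and 7.54 for IRON MAN 1, 7.09 and 5.22 for BHLH101 and 7.08 and 6.36 for PYE. The share of all probe sets with such a gap was not counted, and 72.6% of all were called in this contrast. For IRON MAN 1 the difference was 5.10 in the non-polysomal, 4.12 in the small polysomal and 4.14 in the large polysomal fraction. It was 4.09, 3.88 and 3.85 in the same order for BHLH101, and 2.01, 1.64 and 1.82 for PYE. Each fraction alone thus showed the higher values in the light.

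Across the 12 group means IRON MAN 1 and BHLH101 correlated with r = 0.957 (Spearman's rho 0.993), IRON MAN 1 and PYE with r = 0.866 (0.846), and BHLH101 and PYE with r = 0.875 (0.867). The 3 genes were read on the same arrays and chosen for a like pattern, so these values describe them and carry no test. Among 6823 other probe sets that name 1 gene, the 5 most like IRON MAN 1 over the 12 group means (Pearson) were AT5G61820 (r = 0.988), the expansin gene EXPA8 (0.974), AT3G21670, which the annotation also lists as NPF6.4 of the NRT1/PTR transporter family (0.970), AT5G03230 (0.966) and AT3G17120 (0.964). For BHLH101 they were AT4G39190 (0.983), AT5G41050 (0.974), AT5G19730 (0.969), AT5G21100 (0.960) and IRON MAN 1 itself (0.957). For PYE they were the F-box protein gene SKP2A (0.963), AT5G02230 (0.960), AT3G30300 (0.956), AT1G31440 (0.951) and AT1G61660 (0.950). These lists depend on the measure: with Spearman's rho 2, 4 and 3 of the 5 stayed among the first 5 for IRON MAN 1, BHLH101 and PYE, and with r over the 36 arrays 4, 3 and 1. The annotation used here gives no further name to the loci listed by number.

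The question of the gradient was how each transcript is spread between RNA bound by many, by few and by no or hardly any ribosomes. PYE RNA was lower on large polysomes than in non-polysomal RNA in 12 of 12 extracts, on average over the 4 times by a log2 difference of -1.24 ± 0.11 (SE, n = 3 per group), or 2.36-fold (limma, adjusted p = 9.1e-12), a direction that turns with spike-in scaling. It was also lower in small polysomal than in non-polysomal RNA (-0.59 ± 0.11, adjusted p = 1.8e-05, limma) and in the large than in the small polysomal fraction (-0.65 ± 0.11, adjusted p = 1e-05, limma), each in 12 of 12 extracts. IRON MAN 1 and BHLH101 did not pass the test between large polysomal and non-polysomal RNA. Their log2 differences were 0.21 ± 0.25 (95% interval -0.29 to 0.72, limma, adjusted p = 0.43) and -0.20 ± 0.17 (-0.56 to 0.15, adjusted p = 0.28). The value of IRON MAN 1 was 0.02 without the non-polysomal array of 6am replicate 3 and -0.27 over 12pm and 6pm alone, neither called (limma, adjusted p = 0.93 and 0.50).

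Such calls are common on these arrays. Of all 12635 probe sets 80.1% were called for large polysomal against non-polysomal RNA, 42.3% being higher and 37.8% lower on large polysomes. For the small polysomal against the non-polysomal fraction 68.3% of all were called, 36.7% of all as higher and 31.6% as lower, and for the large against the small polysomal fraction 55.5%, 27.8% of all as higher and 27.7% as lower. A call alone is therefore not particular to PYE. By size, 8.57% of all tested probe sets had a difference as low or lower between large polysomal and non-polysomal RNA. The large polysomal and non-polysomal ranges of PYE were apart at each of the 4 times, as they were, with the large polysomal one lower, for 15.8% of all tested probe sets. At 3 of the 4 times PYE had all 3 fractions apart in the order non-polysomal, small and large polysomal, which at least 3 times held for 5.80% of the tested probe sets.

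All of these differences are set against the average signal of an array. With every array scaled so that the poly(A) spike-in controls read alike, the median of all tested probe sets moved from 0.05 to 2.38 between large polysomal and non-polysomal RNA. The differences of PYE became 1.09 for large against non-polysomal, 0.36 for small against non-polysomal and 0.74 for large against small polysomal RNA, all with the opposite sign. The value of 0.36 was not called (limma, adjusted p = 0.17), while those of 1.09 and 0.74 were (adjusted p = 3.3e-05 and 0.004). Relative to the median of all probe sets they remained negative, at -1.29, -0.63 and -0.65. With this scaling IRON MAN 1 and BHLH101 were called higher on large polysomes than in non-polysomal RNA (2.54 and 2.13, limma, adjusted p = 3.5e-13 and 3e-12), which relative to that median is 0.16 and -0.26. How spike-in RNA was added to the fractions is not given in the sources used here, so the share of all PYE RNA on polysomes is not known.

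Small polysomes carried a higher value of IRON MAN 1 than non-polysomal RNA (0.62 ± 0.25, SE, limma, adjusted p = 0.028), in 10 of 12 extracts. This call rested on few arrays: without the non-polysomal array of 6am replicate 3 the difference was 0.43 (adjusted p = 0.078), without replicate 3 of every group 0.33 (adjusted p = 0.23), and over 12pm and 6pm alone 0.13 (adjusted p = 0.77). It was also not called with no filter or after median centring. The call stayed with the extracts as fixed terms (limma, adjusted p = 0.0029) or as a random block (0.0047). It also stayed without replicate 1 (0.74, limma, adjusted p = 0.036) or replicate 2 (0.78, adjusted p = 0.044) of every group. For BHLH101 the difference between small polysomal and non-polysomal RNA was 0.19 ± 0.17 (limma, adjusted p = 0.34). Between the large and the small polysomal fraction both genes read lower on large polysomes without passing the test, IRON MAN 1 by -0.40 ± 0.25 (adjusted p = 0.17) in 10 of 12 extracts and BHLH101 by -0.39 ± 0.17 (adjusted p = 0.055) in 9 of 12. With the 12 extracts as fixed terms, which the pairing of the fractions allows, both passed (limma, adjusted p = 0.047 and 0.0032). With a random block for extracts BHLH101 passed (limma, adjusted p = 0.0086) and IRON MAN 1 did not (0.064). With spike-in scaling both turned and were called higher on large than on small polysomes (0.98 and 0.99, limma, adjusted p = 9.5e-04 and 2e-04), beside a median of 1.38 for all probe sets.

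**Figure D2:**
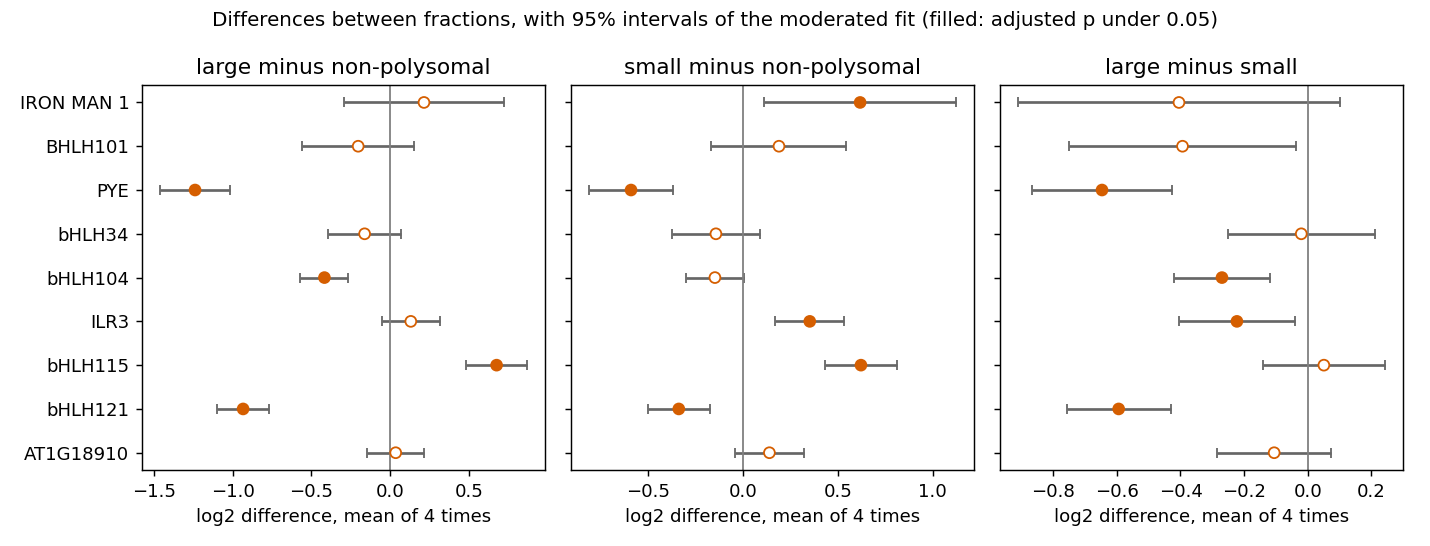
Log2 differences between fractions, averaged over the 4 times (horizontal axes), for the 3 genes and 6 other listed iron genes, with 95% intervals of the moderated fit and filled points for an adjusted p under 0.05. PYE (-1.24) and bHLH121 (-0.93) have the lowest differences between large polysomal and non-polysomal RNA, which with spike-in scaling become 1.09 and 1.40, and the interval of IRON MAN 1 is the widest.

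Loading here means the log2 value of large polysomal RNA minus that of non-polysomal RNA of one extract. For PYE it was -1.33, -1.44 and -1.12 in the 3 extracts of 6am, -1.50, -1.32 and -1.41 at 12pm, -1.54, -1.08 and -1.16 at 6pm, and -0.24, -0.74 and -1.98 at 12am. The values of 6am, 12pm and 6pm all lay between -1.54 and -1.08, and those of 12am had a wider range. At 6am, 12pm and 6pm the mean loading was -1.30 ± 0.22, -1.41 ± 0.22 and -1.26 ± 0.22 (SE, limma, adjusted p = 8.2e-06, 1.9e-06 and 1e-05). At 12am it was -0.98 ± 0.22 (adjusted p = 2.7e-04, limma), but without replicate 3 of every group it was -0.49 and not called (adjusted p = 0.068), and 2 of the 3 large polysomal arrays of that time read under 5. At the single times 57.0%, 61.9%, 61.2% and 59.9% of all probe sets were called, in the order 6am, 12pm, 6pm and 12am. In the same order 31.4%, 32.8%, 32.0% and 31.0% of all were higher on large polysomes and 25.6%, 29.1%, 29.2% and 28.9% lower.

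For IRON MAN 1 the loading was 0.74, 0.25 and 2.30 at 6am, 0.15, -0.38 and -0.67 at 12pm, 0.27, -0.50 and -0.47 at 6pm, and 0.77, -0.50 and 0.59 at 12am. Values of both signs stood at every time but 6am, where all 3 were above 0. The mean at 6am, 1.10 ± 0.49, was not called (limma, adjusted p = 0.059), but it was with the 12 extracts as fixed terms (0.0084) or as a random block (0.013). It held the value 2.30 of replicate 3, and without that replicate's non-polysomal array of 6am it was 0.34. The means at 12pm (-0.30 ± 0.49), 6pm (-0.23 ± 0.49) and 12am (0.29 ± 0.49) were not called (limma, adjusted p = 0.61, 0.70 and 0.63). With spike-in scaling the means of all 4 times were called as higher (1.61 to 3.59, limma, adjusted p of 0.0076 or less). The medians of all probe sets were then 1.96 to 2.57.

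For BHLH101 the loading was 0.40, -0.08 and 0.19 at 6am, -0.93, -0.43 and -0.22 at 12pm, -0.03, -0.12 and -0.21 at 6pm, and 0.14, -0.55 and -0.61 at 12am. All 6 extracts of the light read below 0, and how many of all probe sets do so was not counted. The mean at 12pm, -0.53 ± 0.35 (SE), was not called in the fit without a block (limma, adjusted p = 0.19). It was called with the extracts as fixed terms (0.036), but not as a random block (0.068) or with the replicate number as block (0.17). At 6am (0.17 ± 0.35) and 12am (-0.34 ± 0.35) both fractions had low values, so a loading there is hard to read, and neither these means nor that of 6pm (-0.12 ± 0.35) were called (limma, adjusted p = 0.70, 0.41 and 0.79).

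**Figure D3:**
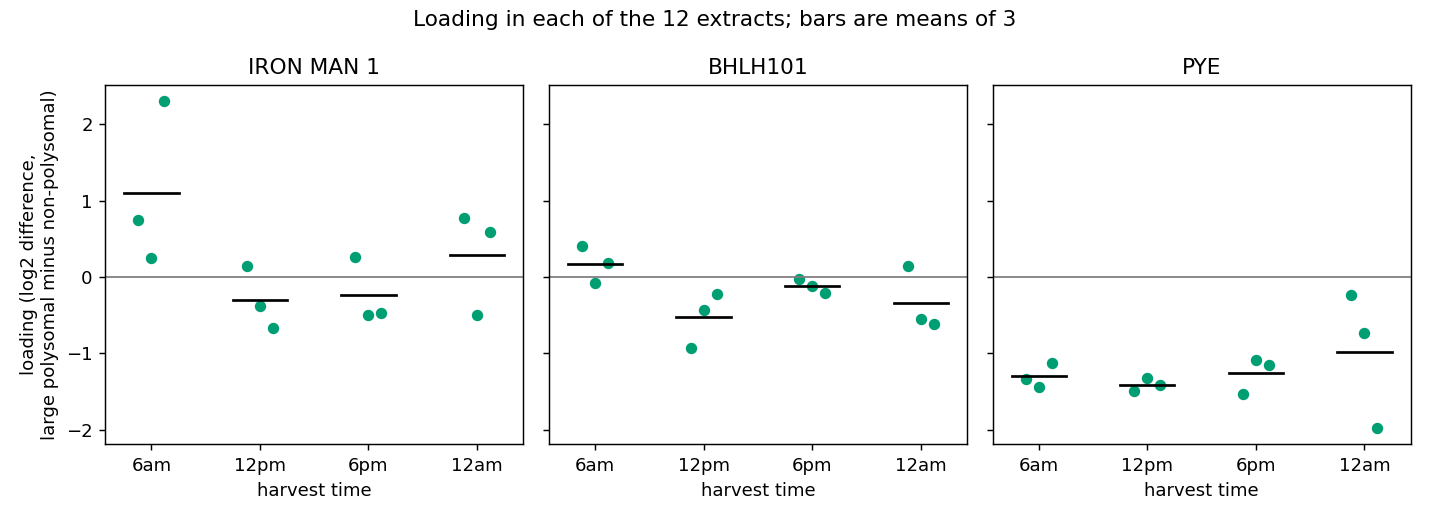
Loading (log2 difference, large polysomal minus non-polysomal, vertical axis) in each of the 12 extracts against harvest time, with bars at the means of 3. All 12 values of PYE lie below 0 (their means lie above 0 with spike-in scaling), while those of IRON MAN 1 and BHLH101 lie on both sides of it.

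Whether loading changed over the day was tested with a moderated F test over the 4 times. In the fit without a block none of the 3 genes passed (limma, adjusted p = 0.37 for IRON MAN 1, 0.69 for BHLH101 and 0.70 for PYE), against 12.7% of all probe sets. None had an unadjusted p under 0.05 in that fit (0.19, 0.53 and 0.55). With the 12 extracts as fixed terms or as a random block all 3 stayed uncalled, with adjusted p of 0.080 and 0.11 for IRON MAN 1 (limma). Loading in the light minus loading in the dark was -0.96 ± 0.49 for IRON MAN 1 (95% interval -1.97 to 0.05, limma, adjusted p = 0.27), -0.24 ± 0.35 for BHLH101 (-0.95 to 0.47, adjusted p = 0.76) and -0.19 ± 0.22 for PYE (-0.63 to 0.25, adjusted p = 0.67). These intervals ignore the pairing of the fractions, so they may be too wide. With the extracts as fixed terms or as a random block the adjusted p of IRON MAN 1 was 0.062 and 0.084 (limma). Its light minus dark loading was -0.58 without the non-polysomal array of 6am replicate 3, and -0.43 without replicate 3 of every group. Without replicate 1 of every group the light minus dark loading was 0.02 for BHLH101 and 0.08 for PYE. In this contrast 5.47% of all probe sets were called, 2.07% as higher and 3.40% as lower in the light. The shares of all probe sets are themselves unsteady: for the F test 1599 probe sets were called, but 4499 with extracts as fixed terms and 25 without replicate 2, and for light minus dark 691, 2060 and 17.

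The difference in loading between the genes was tested over extracts, a comparison added after the values had been seen. Over the 6 extracts of 12pm and 6pm, when all 3 genes were above 5 on every array, the loading of PYE lay below that of IRON MAN 1 by a mean difference of -1.07 ± 0.53 (SD) and below that of BHLH101 by -1.01 ± 0.32, each in 6 of 6 extracts. The exact two-sided sign-flip permutation p was 0.031 for each, the smallest that 6 extracts can give, and 0.047 after adjustment over the 3 pairs. With all 6 differences below 0 this p can take no other value. As the values had been seen before, it adds nothing to the count of extracts. BHLH101 and IRON MAN 1 differed by -0.06 ± 0.57, with 3 of 6 extracts below 0 (exact permutation p = 0.88). Over all 12 extracts the differences were -1.45, -1.03 and -0.42, with adjusted exact permutation p of 7.3e-04, 7.3e-04 and 0.077. Both differences of PYE were below 0 in 12 of 12 extracts, so their p was again the smallest possible. A shift of a whole array cancels in these differences, whereas a different response of the probe sets at low signal does not.

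The other genes of the pathway came from a list of 60 loci, chosen with earlier results of these data known. A probe set names 12 of them alone. Of these, 9 passed the filter on low values, the 3 genes above and 6 others. AT3G13610, listed as F6'H1, a gene of coumarin synthesis, AT3G12900 and AT1G74770 stayed at 2.15 to 2.54 on all 36 arrays. The other 48, among them the genes for the root iron transporter IRT1, the ferric reductase FRO2, FIT (listed as FRU), the ferritins and the nicotianamine synthases, are not analysed here. Neither is AT1G47395, the locus next to AT1G47400, and whether the probe set of IRON MAN 1 also detects RNA of this neighbour was not tested.

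Upstream of the 3 genes, the bHLH genes went different ways between light and dark. bHLH34 was higher in the light (log2 difference in level 1.63 ± 0.09, SE, limma, adjusted p = 4.7e-16), at 6.21 ± 0.09 at 6am, 7.67 ± 0.16 at 12pm, 7.42 ± 0.15 at 6pm and 5.62 ± 0.12 at 12am (SD, n = 3). bHLH115 was higher as well, by 0.48 ± 0.08 (adjusted p = 1.6e-06). bHLH121 was lower in the light by -1.42 ± 0.07 (limma, adjusted p = 3.2e-18), with levels of 10.47 ± 0.13, 9.33 ± 0.09, 9.06 ± 0.13 and 10.75 ± 0.04 from 6am to 12am. It was thus lowest at 6pm, when IRON MAN 1, BHLH101 and PYE were highest, and highest at 12am, when they were lowest. bHLH104 (-0.31 ± 0.06), ILR3 (-0.22 ± 0.07) and AT1G18910 (-0.23 ± 0.07) were slightly lower in the light (limma, adjusted p = 4.2e-05, 0.0074 and 0.0061). AT1G18910, a locus without a symbol in the annotation, is not a bHLH gene and was listed as an E3 ligase.

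All 6 were thus called, 2 higher and 4 lower in the light. Of all probe sets 72.6% were called, 36.1% of all as higher and 36.5% as lower, so calls in both directions are common. The median of the 6 was -0.22 beside -0.01 for all. These fits ignore the pairing of the fractions of an extract, so the errors of these levels may be understated and their p-values too small. As the list was chosen with earlier results of these data known, the p-values of these levels serve as description. The 3 small differences depended on the scale. With spike-in scaling bHLH104, ILR3 and AT1G18910 read 0.078, 0.16 and 0.16 and none was called, while the median of all probe sets moved to 0.38. AT1G18910 read -0.03 with 12am alone as the dark time and was not called (limma, adjusted p = 0.79), nor was it without replicate 3 of every group (-0.12). ILR3 was not called with 6am alone as the dark time (-0.17, adjusted p = 0.094) or without replicate 1 (-0.10).

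**Figure D4:**
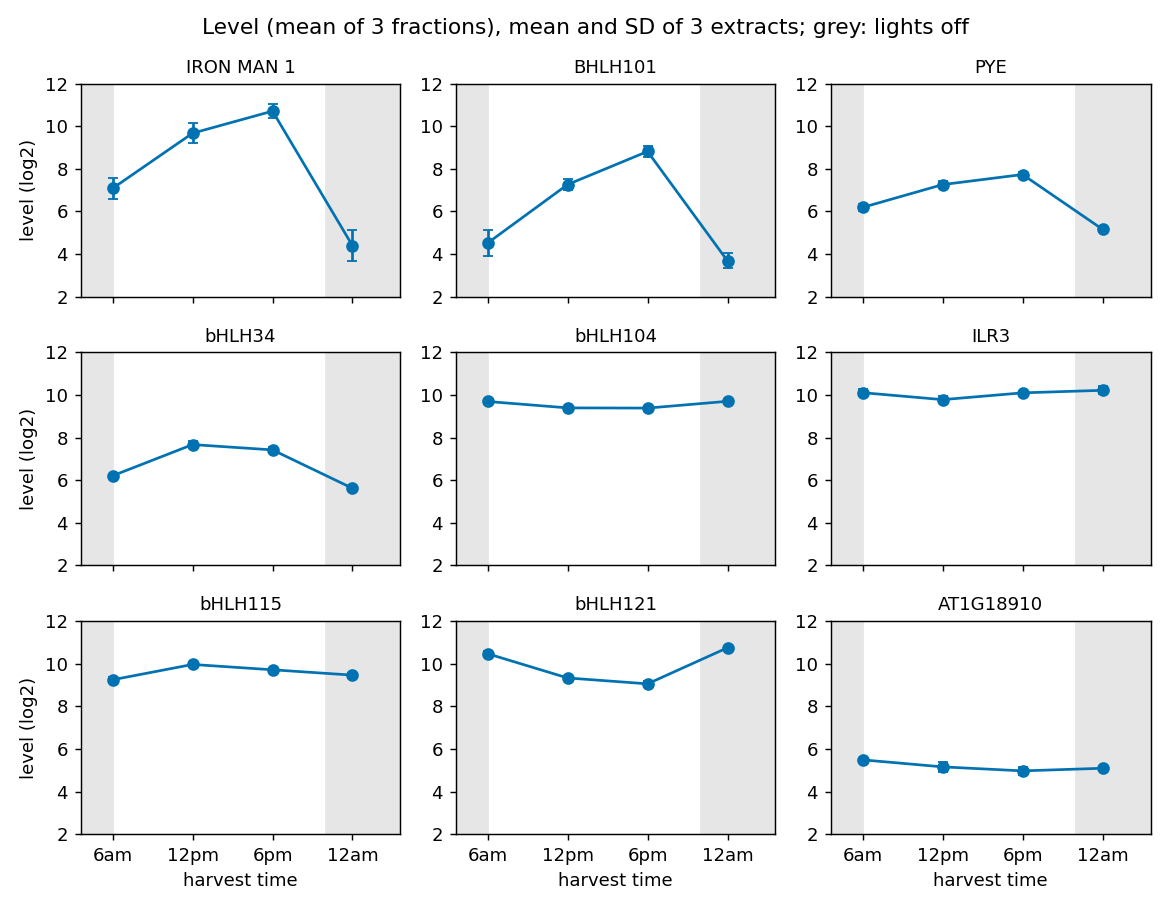
Level of the 3 genes and of 6 other listed iron genes (log2, mean of 3 fractions, vertical axis) against harvest time, with the mean and SD of 3 extracts and grey for lights off. bHLH34 shares the high values of 12pm and 6pm, and bHLH121 runs the other way, from 10.75 at 12am to 9.06 at 6pm.

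Between the fractions, bHLH121 was the listed gene closest to PYE: its large polysomal minus non-polysomal difference was -0.93 ± 0.08 (SE, limma, adjusted p = 6.1e-12), or 1.40 with spike-in scaling. It too had lower values in small polysomal than in non-polysomal RNA (-0.34 ± 0.08) and in the large than in the small polysomal fraction (-0.59 ± 0.08), both called relative to the array average. bHLH104 was lower on large polysomes, with a difference of -0.42 ± 0.07 (limma, adjusted p = 8.2e-06) or 1.91 with spike-in scaling, and bHLH115 higher by 0.67 ± 0.09 (adjusted p = 1.4e-07). ILR3 (0.13 ± 0.09), bHLH34 (-0.16 ± 0.11) and AT1G18910 (0.03 ± 0.09) did not pass (limma, adjusted p = 0.18, 0.18 and 0.73). In all, 1 of 6 was higher and 2 lower, with a median of -0.06 beside 0.05 for all probe sets, of which 42.3% were called higher and 37.8% lower. bHLH34 was called as lower after median centring, quantile normalization or cyclic loess (-0.26, -0.26 and -0.27), and ILR3 as higher without replicate 3 of every group (0.23, limma, adjusted p = 0.049). With spike-in scaling all 6 read higher on large polysomes.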

How the data were processed

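Expression was measured on 36 Affymetrix Arabidopsis arrays. The deposited log2 values per probe set were made by the authors with GCRMA in R 3.1 with affy 1.42.3, per the submitters' processing notes, and other settings are not given in the sources used here. Per the labels' protocols, labelling started from oligo(dT)-primed cDNA. From there, 64 control probe sets were left out and 12635 of 22746 others kept (log2 value of at least 5 on at least 3 arrays). Of these 6824 name 1 gene. One mean per group was estimated by limma 3.58.1 under R 4.3.3 (lmFit and eBayes, with 24 residual degrees of freedom) over all probe sets, with Benjamini-Hochberg adjustment and a threshold of 0.05. The fit was tested on simulated data with independent noise on each array, so that test does not cover the pairing of fractions. Plots used Python 3.11.15 and matplotlib 3.10.9.

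The 3 genes, the iron list, the markers and most alternatives were chosen with earlier results of these data known. Named are the 3 genes, every other listed iron gene that was tested, the measured markers, and for each of the 3 the 5 genes with the highest Pearson r. Equal replicate numbers pair the fractions of an extract: after group means were removed, all 36 such pairs of arrays correlated above 0.1 (median r = 0.422). The fit without a block ignores this, so the errors of levels may be understated and those of fraction contrasts overstated. Where the extract as a block changes a call, the blocked value stands beside it. Alternatives were other filters, scalings, priors and blocks, fewer arrays, and omission of single arrays or of a replicate number. No sequence or genome coordinate is printed, because the tables used here hold no sequences and the build is not named.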

Additional observations from a re-analysis of the deposited data

Results flagged for a closer look

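The loading of bHLH121 differed between light and dark in a test of the difference itself. Its large polysomal minus non-polysomal value was -0.54 ± 0.16 (SE) lower on the log2 scale at 12pm and 6pm than at 12am and 6am (limma, adjusted p = 0.041), with loadings of -0.55 at 6am, -1.18 at 12pm, -1.23 at 6pm and -0.78 at 12am. With the 12 extracts as fixed terms the adjusted p was 0.018. The call was lost after median centring (-0.51, adjusted p = 0.060), quantile normalization (-0.50) and cyclic loess (-0.46), with spike-in scaling (-0.85, adjusted p = 0.97), with only the arrays of the 2 fractions (adjusted p = 0.051), and in 18 of 39 fits that left out arrays, where the value ran from -0.69 to -0.46. The moderated F test over the 4 times did not call it (adjusted p = 0.0785). Whether the level of bHLH121, which is lower in the light, moves its loading was not tested.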

How the results depend on the processing

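Of 68 results, 23 stayed on their side of the threshold, or within 1.5 times for the 5 counts of calls among them, under every alternative run, which for 3 of them was only 1. Of these 23, 4 are values without a call that changed sign, the light minus dark loadings of BHLH101 (-0.24, up to 0.02), PYE (-0.19, up to 0.08), bHLH34 (0.19, down to -0.12) and ILR3 (0.14, down to -0.17). Shifting arrays to equal poly(A) spike-in signal changed most. Large minus non-polysomal differences became 2.54 for IRON MAN 1, 2.13 for BHLH101, 1.09 for PYE, 1.91 for bHLH104, 2.17 for bHLH34 and 1.40 for bHLH121, with 6 other iron genes called higher and 0 lower. By time, from 6am to 12am, they became 1.20, 0.50, 1.18 and 1.49 for PYE and 3.59, 1.61, 2.21 and 2.76 for IRON MAN 1. For BHLH101 they became 2.67, 1.38, 2.32 and 2.13 in the same order. Of these, the value of PYE at 12pm was not called (limma, adjusted p = 0.33). Small minus non-polysomal differences became 1.14 for BHLH101 and 0.36 for PYE, the latter not called (limma, adjusted p = 0.17). Large minus small ones became 0.98 for IRON MAN 1, 0.99 for BHLH101 and 0.74 for PYE. Light minus dark levels became 2.21 for PYE, 0.078 for bHLH104, 0.16 for ILR3 and 0.16 for AT1G18910, with 1 other iron gene called lower. Probe sets called then numbered 12249 for large minus small, 11991, 11751 and 11980 for loading at 6am, 6pm and 12am, 7 for loading between light and dark and 7 for loading over the 4 times. The cause was not tested.

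The higher value of IRON MAN 1 in small polysomal than in non-polysomal RNA lost its call with no filter (0.62), after median centring (0.54) or cyclic loess (0.55), and over 12pm and 6pm alone (0.13). It ran from 0.33 to 0.78 with arrays left out. The large minus small difference of BHLH101 (-0.39) passed with each replicate block, and that of IRON MAN 1 (-0.40) with extracts as fixed terms. That of BHLH101 ran from -0.50 to -0.30 with arrays left out, passing in 9 of 39 such fits, for example without replicate 1 (-0.50, limma, adjusted p = 0.0093). Probe sets called for loading between light and dark (691) numbered 2060 with extracts fixed, 2010 random and 1116 with the replicate number as block, and 17 to 1551 with arrays left out. For loading over the 4 times (1599) they numbered 4499, 4385 and 2635, and 25 to 2211. Beside the calls given in the report, the pairing changed none of the 3 genes' calls.

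Light minus dark levels with 1 fraction alone were 5.10 (IRON MAN 1, non-polysomal), 2.01 (PYE, non-polysomal) and 1.64 (PYE, small polysomal), with 2 other iron genes called lower in either. Without 6am they were 5.80, 4.36 and 2.33 for IRON MAN 1, BHLH101 and PYE, and without 12am 3.11, 3.52 and 1.31. Other iron genes higher on large polysomes numbered 1 to 2 with arrays left out. Low signal limits BHLH101 at night most, with 20 of its 36 arrays at 5 or above.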
